A study of Arabidopsis thaliana with 24 samples.

Results

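QQS (Qua-Quine Starch, locus AT3G30720, chromosome 3) is a protein-coding gene of Arabidopsis thaliana that is measured here by 1 probe set of the 38408 on the array. It is 1 of 16554 genes to which the platform's probe-to-gene table gives a probe set of their own. The gene was picked because its level was high in brm-1 plants and differed from that in the double mutant after heat. Levels in brm-1, and every difference that uses a brm-1 array or a heated double-mutant array, are therefore given as a description without a test.

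QQS is an orphan gene: it encodes a small protein with no recognisable relatives outside Arabidopsis thaliana. In earlier work, plants with less QQS transcript stored more leaf starch and plants with more of it stored less starch and more protein, and its protein binds NF-YC4, a subunit of the trimeric transcription factor NF-Y. QQS lies among transposon remnants, and its expression is known to differ between natural accessions with DNA methylation at its 5′ end. BRM (BRAHMA) is an ATPase of SWI/SNF complexes, which move nucleosomes and can hold genes active or silent, and HD2C is a plant-specific histone deacetylase.

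The 24 arrays hold RNA of plants in the Col-0 background, in 8 groups of 3 biological replicates. The genotypes were wild type (WT), hd2c-3 (called hd2c below), brm-1 (brm) and brm-1 hd2c-3 (the double mutant), all 3 weeks old and grown on soil with 16 h of light. Each was sampled without stress (control) and after 1 h at 38 °C (heat). The labels name no tissue. The replicates were chosen by the submitters for similar levels of unnamed marker genes, so the spread between them may be understated.

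The heat labels were checked with 4 measured heat-induced genes of 12 listed, AT2G29500, ATHSP22.0, HSA32 and ROF2. Each rose in all 4 genotypes, by 4.39 to 8.99 on the log2 scale, and for each gene the lowest heated array lay above the highest control array. BRM and HD2C have no named probe set here, so no check of the mutants by their own transcripts was made. Of 12 listed leaf markers only 1, RCA (rubisco activase), was measured. It had group means from 10.72 to 11.10, with no difference called between genotypes in either condition. After heat RCA was called higher in WT (0.33 ± 0.10, limma adjusted p = 0.0351) and in hd2c (0.38 ± 0.10, adjusted p = 0.0118). Each call was lost with at least 1 single array left out. Of 4 listed root markers only EXPA7 was measured, with group means from 2.10 to 2.43 and no call. None of 7 flower markers was measured, so differences in the share of floral tissue were not tested.

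All levels below are log2 intensities as deposited, and array medians over all probe sets lay between 3.42 and 3.65. Without stress, QQS stood at 4.65, 4.25 and 4.03 in the 3 WT arrays, a mean of 4.31 ± 0.31 (SD, n = 3). In hd2c the control values were 3.75, 3.84 and 4.45, a mean of 4.01 ± 0.38 (SD). In brm they were 6.69, 6.80 and 6.68, a mean of 6.72 ± 0.07 (SD). All 3 brm arrays lay above each array of WT and hd2c in either condition, and the brm replicates were close together. The double mutant had 5.71, 5.62 and 5.44 in control, a mean of 5.59 ± 0.14 (SD), between WT and brm and overlapping neither. These are whole-sample RNA levels, in which fewer expressing cells and less RNA per cell cannot be told apart.

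After heat the WT arrays gave 4.86, 4.28 and 4.67, a mean of 4.60 ± 0.30 (SD, n = 3). The heated hd2c arrays gave 4.14, 4.42 and 4.64, a mean of 4.40 ± 0.25 (SD). These 2 groups overlapped each other and their own controls. In heated brm the values were 7.04, 7.30 and 7.66, a mean of 7.33 ± 0.31 (SD), the highest group of all. In the heated double mutant they were 4.91, 5.47 and 5.86, a mean of 5.41 ± 0.48 (SD), the widest spread among the 8 groups. Its lowest array lay just above the highest WT array of either condition (4.86), and its highest lay below every brm array.

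**Figure D1:**
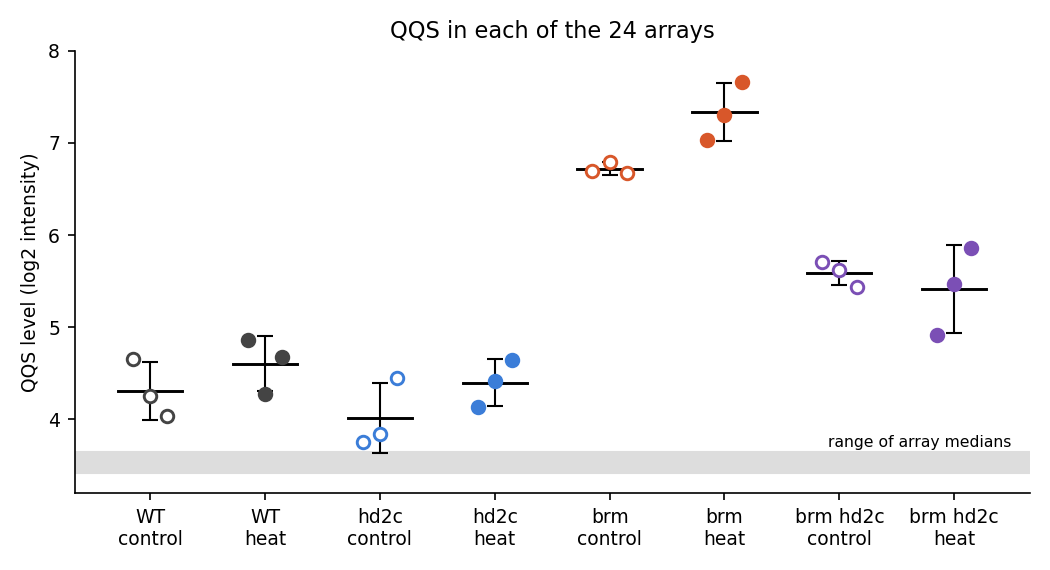
QQS level (log2 intensity, vertical axis) in each array of the 8 groups; open circles are control arrays, filled circles heated arrays, black lines the group mean with 1 SD, and the grey band the range of array medians. The 6 brm arrays lie from 6.68 to 7.66, the double mutant from 4.91 to 5.86, and WT and hd2c from 3.75 to 4.86.

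The order of the group means was brm heat, brm control, double mutant control, double mutant heat, WT heat, hd2c heat, WT control and hd2c control. The gap between the double mutant in control and in heat was 0.17, less than the SD of 0.48 in its heated arrays. The 4 lowest groups also differed by no more than 0.30 from one neighbour to the next, and each neighbouring pair overlapped. The other 3 steps, from brm heat to brm control (0.61), from brm control to the double mutant in control (1.13) and from the heated double mutant to heated WT (0.81), were without overlap.

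Whether QQS is higher in the double mutant than in hd2c can be tested in control on groups that did not choose the gene. This test is not wholly separate from the choice. The double mutant shares its brm-1 allele with the brm plants in which QQS was high, and the standard error pools the spread of all 24 arrays. All lines that lack BRM carry the same brm-1 allele, and DNA methylation at QQS was not measured. Whether the lines also differ at QQS in an inherited way apart from BRM was not tested. In control, QQS rose in the double mutant against hd2c by 1.58 ± 0.23 on the log2 scale, which is 2.98-fold on the linear scale (95% interval of the log2 difference 1.11 to 2.05). The ± of a difference is the moderated standard error (SE), with n = 3 per group. The limma adjusted p was 1.85e-04 over all 16554 genes, and all 3 double-mutant arrays lay above all 3 hd2c arrays. In this comparison 3.28% of all genes were called (adjusted p under 0.05) and 1.61% of all genes were called higher, and 8 genes rose further than QQS. The exact permutation test of the 2 groups of 3 gave p = 0.1, the smallest it can give.

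The double mutant was also above WT in control, by 1.28 ± 0.23 (2.42-fold, limma adjusted p = 0.0015), without overlap, where 3.12% of all genes were called. The WT arrays are among those against which the high brm level was seen, so this value is less separate from the choice of the gene than the one against hd2c. Both calls held when any 1 array of the groups compared was left out, with adjusted p up to 0.00239 against hd2c and up to 0.0151 against WT.

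Loss of HD2C by itself gave no call. QQS in hd2c differed from WT by −0.30 ± 0.23 in control (95% interval −0.77 to 0.17, limma adjusted p = 1, with 0.00604% of genes called) and by −0.21 ± 0.23 in heat (−0.68 to 0.26, limma adjusted p = 0.744, with 0.598% called). With 1 array left out the differences ran from −0.52 to −0.13 in control and from −0.37 to −0.07 in heat, without a call. Both intervals reach from a fall to a small rise, and neither reaches the difference of 1.58 seen between the double mutant and hd2c.

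Heat gave no call for QQS in WT or in hd2c. The rise was 0.29 ± 0.23 in WT (95% interval −0.18 to 0.76, limma adjusted p = 0.513), where 13.3% of genes were called, and 0.39 ± 0.23 in hd2c (−0.08 to 0.86, limma adjusted p = 0.261), where 20% were called. With 1 array left out the rise ran from 0.15 to 0.46 in WT and from 0.26 to 0.60 in hd2c (limma adjusted p of 0.0909 or more), without a call. The difference between these heat responses, 0.09 ± 0.32 (hd2c minus WT, 95% interval −0.57 to 0.76), was not called either (limma adjusted p = 0.982), nor was that of any other gene by limma (0% of all genes).

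The comparisons that chose the gene are given for their size alone. In control QQS in brm was 2.41 ± 0.23 above WT, a 5.31-fold difference, and 1 gene of 16554 lay further above. In heat it was 2.73 ± 0.23 above WT, or 6.63-fold, with 2 genes further above. The double mutant was below brm by 1.13 in control (log2 difference −1.13 ± 0.23, 2.19-fold lower) and more so in heat (−1.92 ± 0.23, 3.78-fold lower). No gene had a more negative value than QQS in the latter comparison. Since the gene was picked for its level in these groups, its ranks among all genes here are no separate result. Called genes made up 4.26% in brm against WT in control, 5.1% in heat, 0.0423% in the double mutant against brm in control and 4.8% in heat.

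The remaining differences also hold arrays used in the choice. In heat the double mutant was 1.02 ± 0.23 above hd2c and 0.81 ± 0.23 above WT, where 5.03% and 9.35% of all genes were called. From control to heat QQS was 0.61 ± 0.23 higher in brm, where the lowest heated array (7.04) lay above the highest control array (6.80). In the double mutant the heated mean was 0.17 lower (log2 difference −0.17 ± 0.23) with overlapping arrays, and without heated double-mutant replicate 1 this difference turned to 0.08. If the effects of both mutations added up on the log2 scale, the double mutant would equal brm plus hd2c minus WT. Its level minus that sum was −0.83 ± 0.32 in control and −1.71 ± 0.32 in heat.

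**Figure D2:**
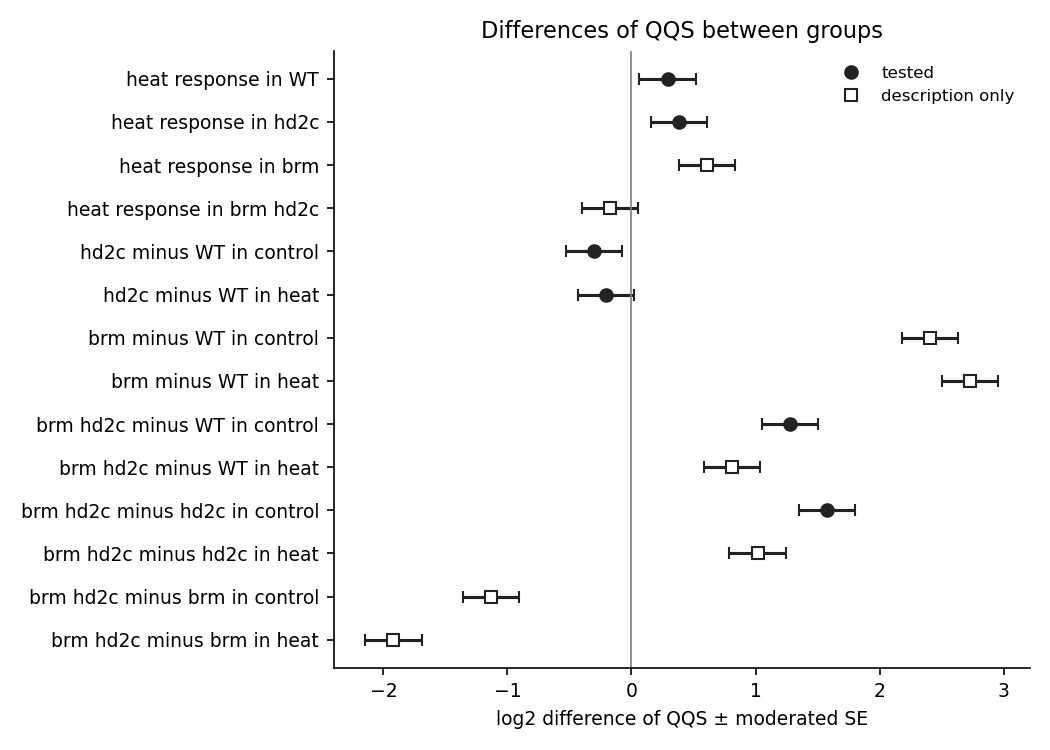
Log2 differences of QQS (horizontal axis) for 14 comparisons of 2 groups, each with 1 moderated standard error; filled circles were tested and open squares are descriptions, since they hold arrays that chose the gene. The double mutant lies 1.58 above hd2c and 1.28 above WT in control, while the values of hd2c against WT and the heat responses of WT and hd2c lie within 0.39 of 0.

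The spread of QQS between replicates differed from group to group. In WT control its SD of 0.31 was larger than that of 91.8% of genes, against a median SD of 0.13, and in hd2c control (0.38) larger than that of 94.6%. In brm control the SD of 0.07 was larger than that of 13.8% of genes only. In the heated double mutant the SD of 0.48 exceeded that of 91.8% of genes, against a median of 0.21. The moderated standard error pools the spread of all 8 groups, 0.30 for QQS, which is above the SD of brm control and below that of the heated double mutant. Whether the groups' variances differ was not tested.

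Starch enzymes gave a frame for the gene's known role. Of 49 listed genes of starch synthesis and breakdown 13 were measured, and 9 of these were called in at least 1 of 14 comparisons of 2 groups, as were 37.7% of all genes. The 13 had WT control means from 4.17 to 8.62, while only 8484 of the 16554 genes lay above 3.55. The shares of all genes given here and below are therefore not matched for level. In the 6 comparisons of brm or the double mutant with a genotype that has BRM, 5 of the 13 were called lower at least once and none higher, against 7.04% and 8.29% of all genes. Of these, only GWD2 and LESV were called both in brm against WT and in the double mutant against hd2c. BE2 was called only in brm against WT in control, and PTST1 and PWD (AT5G26570) only in the heated double mutant.

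The largest of these falls was in GWD2 (AT4G24450), a cytosolic glucan water dikinase that adds phosphate to glucans and is known to be dispensable for the nightly breakdown of leaf starch. The reference table gives the symbol PWD to this gene as well as to AT5G26570, and they are told apart here by locus. GWD2 stood at 5.77, 5.51 and 5.72 in WT control and at 5.76, 5.80 and 5.50 in hd2c control. In brm control it stood at 3.34, 3.76 and 3.28, and in the double mutant at 3.62, 3.22 and 3.50. The brm and double-mutant arrays overlapped each other and lay below all arrays of WT and hd2c, whereas for QQS they lay above them.

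In control GWD2 fell by 2.21 ± 0.19 in brm against WT (limma adjusted p = 8.77e-08) and against hd2c the double mutant was lower by as much (−2.24 ± 0.19, adjusted p = 8.71e-08). These comparisons share no array, but they share the brm-1 allele and the spread pooled over all groups. In heat it fell by 1.54 ± 0.19 in brm against WT (adjusted p = 1.13e-05) while the double mutant differed from hd2c by −2.14 ± 0.19 (adjusted p = 1.18e-07). The double mutant did not differ from brm at the threshold, with −0.02 ± 0.19 in control (adjusted p = 1) and −0.53 ± 0.19 in heat (adjusted p = 0.116). In QQS the same differences were −1.13 and −1.92. GWD2 lay between 2.92 and 3.97 in brm and the double mutant, around the array medians of 3.42 to 3.65. How small a change the array can register at such levels was not tested. A test of GWD2 against QQS was not made.

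LESV (AT3G55760), a protein of the starch granule matrix that shapes how glucans are laid down, was lower without BRM in control. Its values there were 5.71, 5.54 and 5.50 in WT and 4.89, 5.02 and 5.08 in brm, a fall by 0.59 ± 0.13 (limma adjusted p = 0.00615). They were 5.78, 5.90 and 5.41 in hd2c and 4.96, 4.88 and 4.57 in the double mutant, a fall by 0.89 ± 0.13 (adjusted p = 1.48e-04). Neither pair of groups overlapped. In heat LESV differed by −0.17 ± 0.13 in brm against WT (adjusted p = 0.599) and by −0.33 ± 0.13 in the double mutant against hd2c (adjusted p = 0.158). The heat response of brm did not differ from that of WT at the threshold in any of the 13 starch genes, LESV among them. A fall limited to control was therefore not shown in brm. The heat response of the double mutant was not tested against that of hd2c, and the test against WT is given below.

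**Figure D3:**
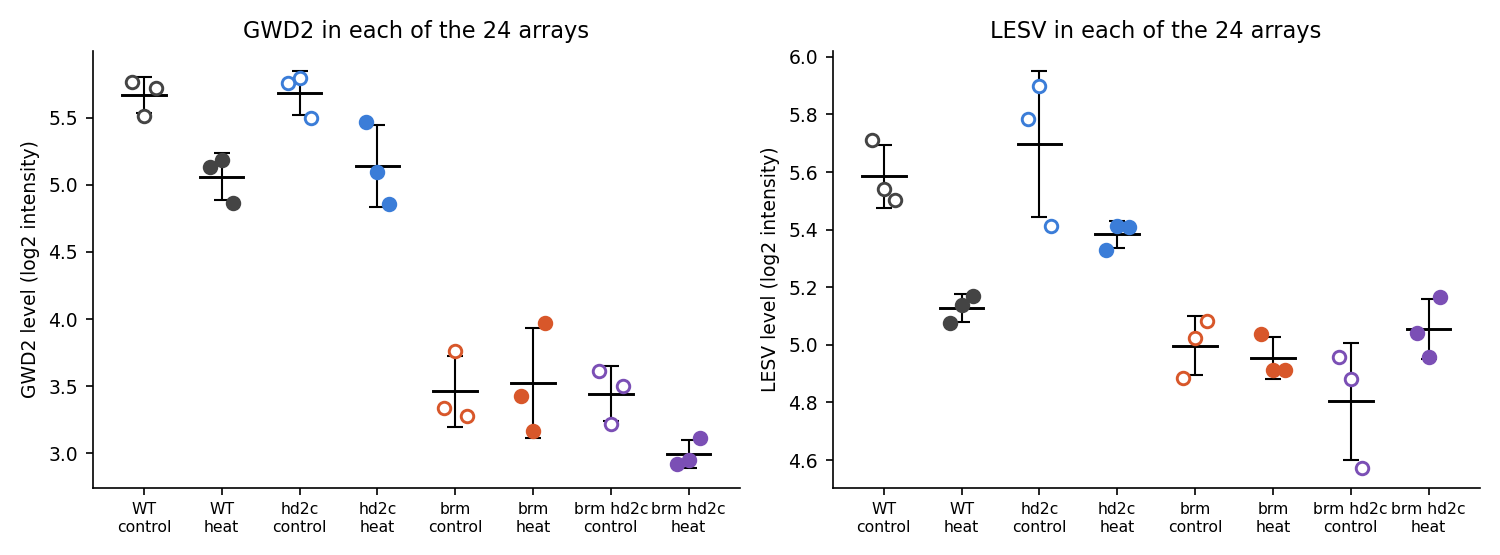
Levels (log2 intensity, vertical axes, which do not start at 0) of GWD2 and LESV in each array; open circles are control arrays, filled circles heated arrays, and black lines the group mean with 1 SD. GWD2 lies between 2.92 and 3.97 in brm and the double mutant and between 4.85 and 5.80 in WT and hd2c.

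By comparison, in brm against WT in control 3 of 13 starch genes were lower (2.04% of all genes were), with a median log2 difference of −0.18 against −0.01 for all genes. The third was the branching enzyme BE2, which fell by 0.46 ± 0.12 (limma adjusted p = 0.0355), a call that was lost without WT control replicate 1, 2 or 3 and without brm control replicate 2 or 3. In the double mutant against hd2c in control 2 of 13 were lower (1.67% of all genes), with a median of −0.22 against 0.01. In brm against WT in heat 1 of 13 was lower (2.31% of all genes), with a median of −0.03 against −0.01. In heat 2 of 13 were lower in the double mutant against hd2c (2.02% of all genes) and 3 against WT (4.2%). Against hd2c the count was 1 without hd2c heat replicate 2 or 3 or double mutant heat replicate 3, and 4 without double mutant heat replicate 2. Against WT it was 1 without WT heat replicate 2 or double mutant heat replicate 3, and 5 without double mutant heat replicate 2. In control 2 were lower against WT (1.59%). Neither APL3 nor APL4, large subunits of the enzyme that makes ADP-glucose, was called in any of the 6 comparisons with loss of BRM.

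**Figure D4:**
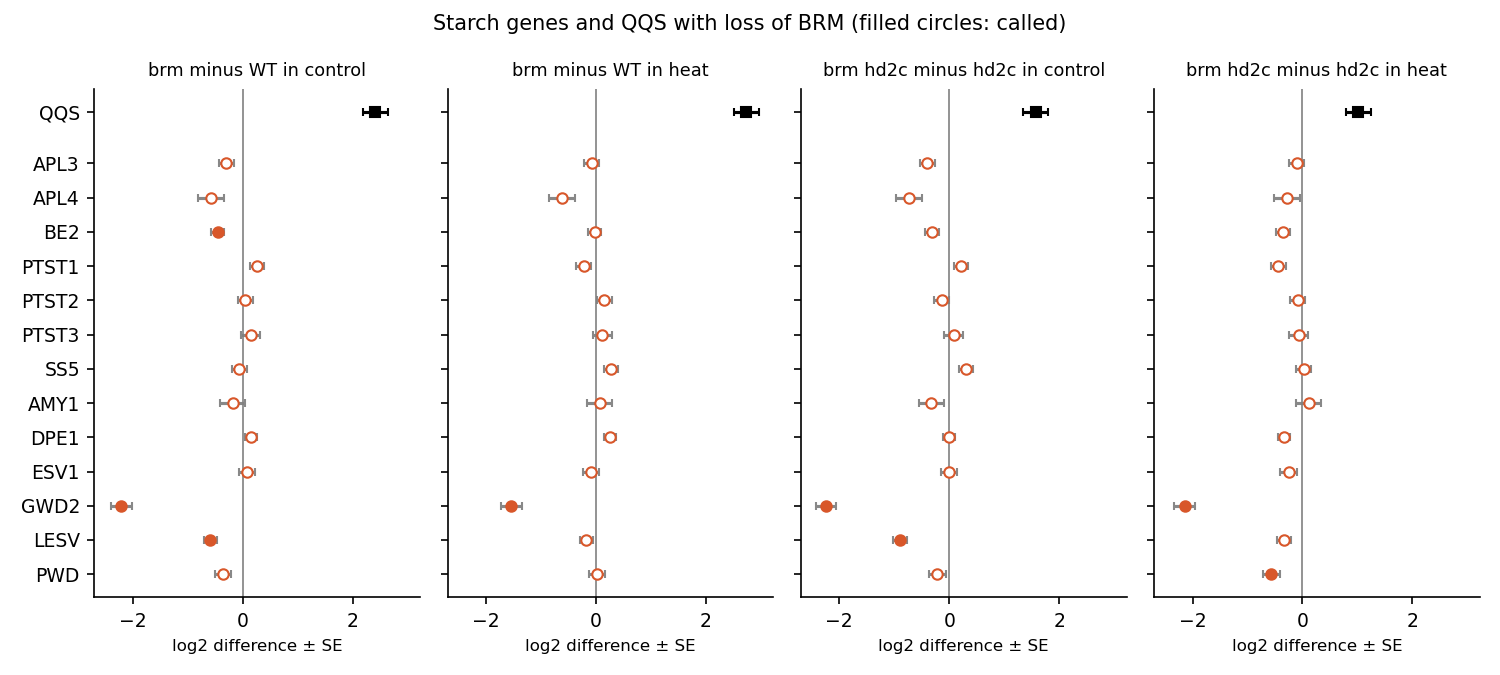
Log2 differences with 1 moderated standard error (horizontal axes) of QQS (squares) and of 13 starch genes (circles, filled where called) in 4 comparisons with loss of BRM. QQS lies to the right of 0 in all 4 and GWD2 to the left in all 4.

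In the double mutant against brm in heat, one of the comparisons that picked QQS, 2 of 13 starch genes were lower (2.02% of all genes) and none higher. DPE1, the plastid disproportionating enzyme that recycles maltotriose, fell by 0.54 ± 0.11 (limma adjusted p = 0.00483), and this call held without any 1 array. PWD (AT5G26570), which phosphorylates glucans at the granule surface after GWD1, fell by 0.56 ± 0.15 (adjusted p = 0.0286). The call of PWD was lost without brm heat replicate 1 or 3 and without double mutant heat replicate 3, each of which left 1 of 13 called.

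Heat changed several starch genes while it gave no call for QQS in WT and hd2c. In WT 1 of 13 was higher and 6 were lower, where 5.81% and 7.48% of all genes were, and the total of 7 was 3 without WT control replicate 1 or WT heat replicate 3 and 4 without WT heat replicate 1. In hd2c 1 was higher and 4 lower, where 8.87% and 11.2% of all genes were, and the total of 5 was 3 without hd2c control replicate 1. In brm 2 were higher and 3 lower (15.8% of all genes were called, 7.28% higher and 8.51% lower), a total of 3 without brm control replicate 3. In the double mutant none was higher and 5 were lower (21.5% called, 9.38% higher and 12.1% lower).

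APL3 fell in all 4 genotypes, by 0.79 ± 0.14 in WT, 0.96 ± 0.14 in hd2c, 0.57 ± 0.14 in brm plants and 0.66 ± 0.14 in the double mutant (limma adjusted p up to 0.00539). APL4 was lower after heat by the same test in each genotype, with −0.84 ± 0.24 in WT, −1.24 ± 0.24 in hd2c, −0.89 ± 0.24 in brm plants and −0.78 ± 0.24 in the double mutant (adjusted p up to 0.0192). Its call held in hd2c without any 1 array. It was lost in WT without WT control replicate 1 or WT heat replicate 1 or 3, in brm without brm control replicate 3, and in the double mutant without its control replicate 1 or 3 or heat replicate 1. ESV1, a protein of the starch granule matrix, differed by −0.45 ± 0.15 in WT, −0.50 ± 0.15 in hd2c, −0.61 ± 0.15 in brm plants and −0.75 ± 0.15 in the double mutant (adjusted p up to 0.0461). Its call held in brm and the double mutant without any 1 array, but was lost in WT without control or heat replicate 2 or 3 and in hd2c without control or heat replicate 1. PTST1, which brings granule-bound starch synthase to the granule, rose by 1.03 ± 0.13 in WT, 0.91 ± 0.13 in hd2c and 0.55 ± 0.13 in brm (adjusted p up to 0.00559). The heat response of the double mutant differed from that of WT in 2 of 13 starch genes, PTST1 and LESV, where 1.47% of all genes were called, and both calls were lost without most of the single arrays.

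Other genes linked to QQS could be followed only in part. None of 9 listed NF-YC genes, NF-YC4 among them, has a named probe set. Of 7 subunits of SnRK1, a kinase that signals low energy and acts on starch turnover, 3 were measured. KINB2 fell after heat in the double mutant (−0.46 ± 0.12, limma adjusted p = 0.00633) and in hd2c (−0.47 ± 0.12, adjusted p = 0.00561). Both calls held without any 1 array. It was not called in WT (−0.16 ± 0.12) or brm plants (−0.25 ± 0.12), and KINB3 was called in no genotype. After heat 5.81% to 9.38% of all genes were called higher, depending on genotype, and 7.48% to 12.1% lower. The regulatory subunit KINB1 rose after heat in all 4 genotypes, by 1.02 ± 0.15 in WT, 0.91 ± 0.15 in hd2c, 1.54 ± 0.15 in brm plants and 0.67 ± 0.15 in the double mutant (limma adjusted p up to 0.00204). No SnRK1 subunit was called between genotypes in either condition, but the rise of KINB1 was smaller in the double mutant than in brm (a difference of −0.87 ± 0.21, adjusted p = 0.0274, where 2.36% of all genes were called), a call lost without 7 of the 12 single arrays. For QQS the same difference of heat responses was −0.79 ± 0.32, given as a description. Of 32 listed genes of DNA methylation and silencing only DME, a DNA demethylase, was measured, with no call in the 14 comparisons (adjusted p of 0.296 or more).

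The neighbourhood of QQS was examined through the gene order of the reference table. Of the 5 annotated genes on each side, 6 of 10 are annotated as pseudogenes and 1 more as a transcribed pseudogene, and 1, AT3G30730, has a named probe set. The 3 nearest genes with one on each side lie up to 45 genes away. None of these 6 was called in any of the 14 comparisons (limma adjusted p of 0.065 or more), where 37.7% of all genes were called at least once, and their differences ran from −0.32 to 0.46. Their mean levels of 1.27 to 2.07 were below every array median, and how small a change the array can register at such levels was not tested. AT3G30730, 4 genes away, differed by 0.02 ± 0.15 in brm against WT in control and by 0.30 ± 0.15 in heat.

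Among 8276 genes with an SD over the arrays at or above the median, 32 had a Pearson r above 0.8 with QQS over the 24 arrays and none above 0.9, while 30 had an r below −0.8, the lowest −0.90. The points share their groups and their arrays, so r is a description only. The 5 most like QQS were the beta-glucosidase gene BGLU45 (r = 0.87), AT2G25270 (0.87), AT5G39120 (0.87), SHI (0.86), a zinc-finger regulator of the SHI/STY family, and AT5G59790 (0.86). Without the 6 brm arrays r was 0.80, 0.77, 0.65, 0.82 and 0.79 in that order, for genes that were picked with those arrays included.

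BGLU45 had a mean of 3.63 ± 0.11 (SD, n = 3) in brm control and 3.48 ± 0.14 (SD) in the unstressed double mutant, against 2.28 ± 0.15 (SD) in WT. AT5G39120 had 4.11 ± 0.60 (SD) in brm control and 2.60 ± 0.57 (SD) in the double mutant, against 1.85 ± 0.42 (SD) in WT. The WT means of both genes and the double-mutant mean of AT5G39120 were below every array median, where the size of change that the array registers was not tested. In heat the double mutant differed from brm by −0.58 ± 0.14 in BGLU45, −0.44 ± 0.12 in AT2G25270, −0.78 ± 0.35 in AT5G39120, −0.35 ± 0.16 in SHI and −0.29 ± 0.16 in AT5G59790. When group means were removed, the highest r with QQS were 0.75 to 0.78, in AT1G08360, AT3G18800, AT5G09760, AT1G32700 and AT2G34620, none of them among the 5 above.

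**Figure D5:**
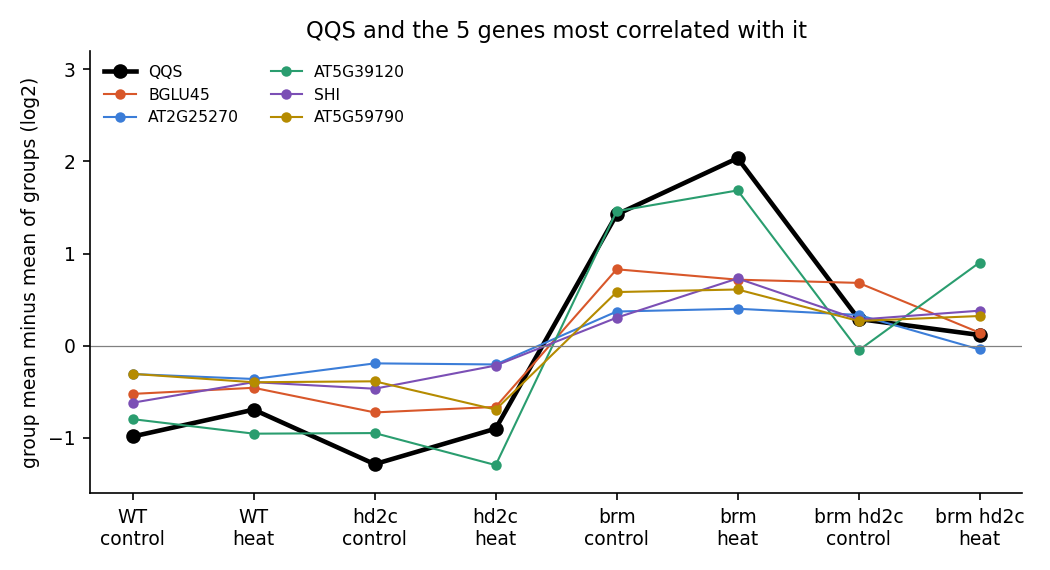
Group means of QQS (black) and of the 5 genes most correlated with it over 24 arrays (colours), each minus its own mean over the 8 groups (log2, vertical axis). The mean of each of the 6 is higher in brm than in WT and hd2c. The 5 were picked by r over arrays that include brm, so this is no separate result.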

How the data were processed

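Total RNA was labelled with an Affymetrix whole-transcript kit, per the labels' protocols. The deposited values are log2 intensities, 1 per probe set and array, and RMA and Partek are the tools named, per the submitters' processing notes, with no version or setting. RMA values can understate the differences of weak probe sets. No raw signals were used here.

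Of 38408 probe sets 17504 are named in the platform table. The 758 with several genes were left out, and the probe set with the highest mean stood for each of 16554 genes. Of these, 16418 were found in the TAIR10.1 gene table, used for names and gene order only. All 24 arrays entered 1 linear model with 8 group means (limma 3.58.1, R 4.3.3, 16 residual and 6.25 prior degrees of freedom), and calls were made at 0.05 on two-sided p-values adjusted by Benjamini and Hochberg's method. The method was tested on simulated data. Matplotlib 3.10.9 drew the plots.

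QQS, the gene lists and the comparisons were chosen with earlier results of these data known. Genes named were mainly QQS, genes from the 3 largest differences among called genes of each list in a comparison, and the 3 nearest measured neighbours on each side. The 5 genes most correlated with QQS over all arrays and with group means removed were named too. Not every called gene of a list is named, so a gene left unnamed in a comparison may still have been called. Replicate numbers were not taken as pairs: in no comparison did the deviations of same-numbered arrays correlate above 0.1 in every pair. In some comparisons every pair was positive, as in the double mutant against brm in heat (0.41, 0.24 and 0.03). The number of arrays limits the precision. Alternatives covered scaling, array weights, moderation, filters, pairing and leaving out each array.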

Additional observations from a re-analysis of the deposited data

Results flagged for a closer look

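Heat responses of 2 starch genes differed between the double mutant and WT by the test of the difference itself. PTST1 rose less in the double mutant, with a difference of −0.78 ± 0.19 (limma adjusted p = 0.0371), and in all arrays of the heated double mutant (5.47, 5.50 and 5.53) it lay below all heated WT arrays (5.87, 6.20 and 5.89). LESV, which fell in WT, did not fall in the double mutant, with a difference of 0.71 ± 0.18 (adjusted p = 0.0463). Both rest on few arrays: of 12 arrays left out in turn, 2 kept the call for PTST1 (double mutant control replicate 1 and WT heat replicate 1) and 2 for LESV (double mutant control replicate 1 and double mutant heat replicate 2). Of 10 alternative settings 7 kept the call for each. The rise of the SnRK1 subunit KINB1 after heat differed between the double mutant and brm by −0.87 ± 0.21 (adjusted p = 0.0274). That call was lost without brm control replicate 2 or 3, double mutant control replicate 1 or 2, brm heat replicate 1 or 3, or double mutant heat replicate 1, and it held under all 10 alternative settings.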

How the results depend on the processing

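Under 11 alternative settings all 18 reported differences of QQS kept their direction (1 of them, the difference of heat responses between the double mutant and brm, was added after seeing the data, and ran from −1.01 to −0.54 with 1 array left out), and the 7 tested ones kept their side of the threshold. The rise in the double mutant against hd2c in control ran from 1.56 to 1.66 (adjusted p 1.23e-05 to 0.002) and against WT from 1.25 to 1.28 (adjusted p 1.56e-04 to 0.00853). With 1 array left out these differences ran from 1.45 to 1.79 and from 1.14 to 1.45. The difference in heat response between hd2c and WT, 0.09, ran from −0.076 to 0.312 with 1 array left out and turned negative in 4 of 12 cases (−0.076 without WT control replicate 1, −0.035 without hd2c control replicate 1, −0.068 without WT heat replicate 2 and −0.028 without hd2c heat replicate 3). The difference of the double mutant from brm in heat ran from −2.14 to −1.67. The 37 calls of starch genes over the 14 comparisons were 28 to 42 under the alternatives. With the replicate number as a block the double mutant differed from hd2c by 1.58 (adjusted p = 2.18e-04), 36 starch calls were made, and no call of QQS changed. Deviations of same-numbered arrays correlated between −0.22 and 0.41, above 0.1 in 9 of 42 pairs, and 14 of 24 arrays correlated best with their own number.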
